A study of Acipenser dabryanus with 12 samples.

Results

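The spleen of juvenile Yangtze sturgeon (Acipenser dabryanus) was examined for genes whose difference between 2 diets kept or turned its sign when the fish had eaten. A gene of the de novo assembly entered with a mean of at least 5 TPM (a length-corrected transcript abundance scaled to a fixed total per library) over the 4 spleen libraries. This held for 17803 of 280408 assembled genes. The study held 12 libraries of brain, liver and spleen, with a single library for every tissue under either diet, hungry or fed. All fish came from 1 trial of 7 weeks at an age of 6 months, and no strain or genotype was given.

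The 4 spleen groups were soybean oil diet before the meal, fish oil diet before the meal, soybean oil diet after the meal and fish oil diet after the meal. Fish of the first 2 groups were caught 1 h ahead of their daily meal, the others 1 h after eating. Each diet was fed in 1 pond, so diet and pond cannot be told apart, and neither can feeding state and hour of the day. Whether the RNA of several fish was pooled in a library is not stated. The dissection and extraction texts describe liver only, also for the samples labelled spleen.

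The spleen of a bony fish filters blood and houses lymphocytes and macrophages. Red blood cells of fish keep their nucleus and carry RNA, so blood held in the organ contributes to its transcriptome. Soybean oil is rich in linoleic acid, and fish oil supplies the long-chain omega-3 fatty acids EPA and DHA. A diet by meal difference is the amount by which the diet fold after the meal departs from the diet fold before it. The files pair the Trinity IDs with no gene names, so spleen markers and lipid pathways could not be looked up and no role is given to any ID. In bulk tissue, fewer cells of a type and less RNA per cell cannot be told apart.

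The diet difference turned its sign in most spleen genes. Diet folds are log2 differences of TPM + 1, soybean oil minus fish oil. Of the 17803 genes, 10859 (61%) turned, 6560 (36.8%) kept their sign and 384 had a difference of 0 in at least 1 state. The largest class, 7979 genes, was lower with soybean oil before the meal and higher after it. The opposite turn, from higher to lower, was seen in 2880 genes, while 2938 stayed higher and 3622 stayed lower with soybean oil. Across the 17803 genes, which are not independent, the diet folds before and after the meal had a Pearson r of -0.14. With 1 library per group these are counts of signs, with no replicate check.

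The share of turned genes hardly moved with scaling, but the balance between the 2 kinds of turn did. After quantile normalization, which gives the 4 spleen libraries one distribution of values, 60.0% of the genes turned. The 5050 genes turning from lower to higher were then fewer than the 5630 turning from higher to lower. On TPM as deposited the median diet fold was -0.21 before the meal and 0.22 after it. Quantile normalization brought these medians to 0.047 and 0.0061, so the lean towards lower-to-higher turns depended on the scaling. A turn of the same kind under both scalings was found for 5030 genes from lower to higher and for 2833 genes from higher to lower. The same sign under both was kept by 2162 genes higher and 2178 genes lower with soybean oil.

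**Figure D1:**
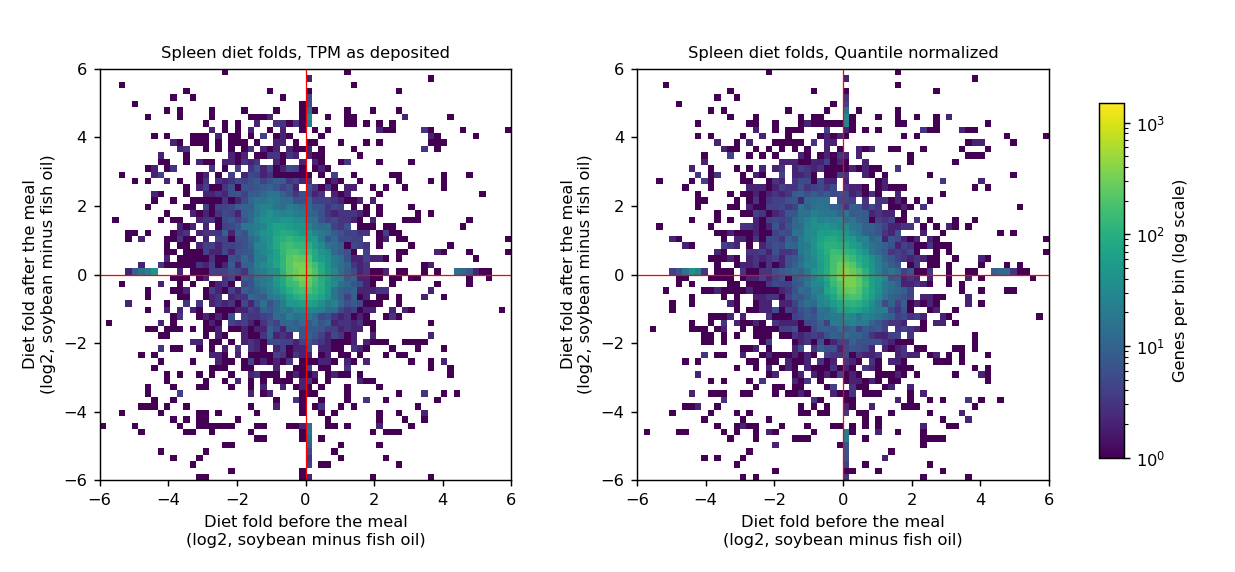
Diet folds of 17803 spleen genes before the meal (x axis) and after it (y axis), both log2 of TPM + 1, soybean oil minus fish oil, with colour for the number of genes per bin on a log scale and values past 6 drawn at the edge. The cloud leans towards the upper left and lower right, where 61% of the genes lie as deposited (left) and 60.0% after quantile normalization (right).

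Among genes at least 2-fold apart by diet in both states, turning was again the more common outcome. Lower-to-higher turns numbered 1146 (6.44% of all genes tested), and higher-to-lower turns 149 (0.837%). Genes staying higher with soybean oil numbered 169 (0.949%) and genes staying lower 278 (1.56%). Turned genes thus made up 74.3% of the 1742 genes past 2-fold in both states, or 66.6% of 1356 after quantile normalization. The share that unrelated diet folds of these sizes would give was not computed. The quantile normalized numbers were 624 (3.51%), 279 (1.57%), 190 (1.07%) and 263 (1.48%) in the same order. All 624 of the quantile normalized lower-to-higher genes were among the 1146.

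Taken alone, each feeding state leaned to one side. Before the meal 692 genes (3.89%) were at least 2-fold higher and 2501 (14%) at least 2-fold lower with soybean oil. After the meal 3513 (19.7%) were higher and 1125 (6.32%) lower. After quantile normalization the numbers before the meal were 1148 (6.45%) higher and 1602 (9%) lower, and those after it 2596 (14.6%) higher and 1625 (9.13%) lower.

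Genes on either side of the limit of 5 TPM gave similar shares. Genes just outside it, with means of 4 to 5 TPM, kept their sign in 32.9% of 3812 cases. Genes just inside, from 5 to 6 TPM, did so in 35.3% of 2694. The shares that turned were 55.8% and 57.5%, and the rest had a difference of 0 in at least 1 state. Genes listed at 0 in 1 library or more made up 5.17% of all genes tested, but 40.3% of the 149 higher-to-lower genes and 13.4% of the 1146 lower-to-higher genes. In the classes that stayed higher or lower by 2-fold the shares were 36.7% and 42.8%. A gene listed at 0 in a library reaches a mean of 5 TPM only through its other libraries. A larger share of such genes past 2-fold therefore follows in part from the limits set. A value of 0 in these files can be a failed estimate as well as a missing transcript, and TPM holds no depth by which to tell them apart.

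The most abundant spleen genes turned mostly the opposite way to genes of low level. Of the 105 genes averaging 1000 TPM or more, 73 went from higher to lower and 14 from lower to higher with soybean oil. Before the meal 82.9% of them were higher with soybean oil, and after it 26.7%. Among the 13537 genes of 5 to 20 TPM the shares were 31.0% and 64.1%. In between, the 584 genes of 100 to 1000 TPM were nearly balanced, with 194 turning from higher to lower and 166 from lower to higher. The 105 genes together took 49.7% of all TPM in the soybean oil spleen before the meal and 38.6% in the fish oil spleen before the meal. They took 42.9% in the soybean oil spleen and 51.1% in the fish oil spleen after the meal. In the fish oil spleen after the meal a pair of IDs described below alone held 6.31%. Of the 105 genes, 22 were highest and 23 lowest in that library. In the soybean oil spleen before the meal 63 were highest and 5 lowest, and in the soybean oil spleen after it 8 and 65. In the fish oil spleen before the meal 12 were highest and 12 lowest.

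The 2 libraries with the lower share of these abundant genes were the ones in which more genes were detected. The fish oil spleen before the meal held 62193 genes of at least 1 TPM and the soybean oil spleen after the meal 60507. The soybean oil spleen before the meal held 48131 and the fish oil spleen after the meal 47226. Because TPM has a fixed total, the sum over all other genes is lower where the abundant genes take a larger share. After quantile normalization the turns of the 105 genes were 31 from higher to lower and 27 from lower to higher, so their lean was mostly gone. Another 9 stayed higher, 26 stayed lower and 12 had a difference of 0 in at least 1 state. This scaling gives the highest ranks of every library the same values. A shift shared by the most abundant genes is thus removed by construction. The part of this shift in the turn of single genes was not tested beyond the rescalings given here.

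**Figure D2:**
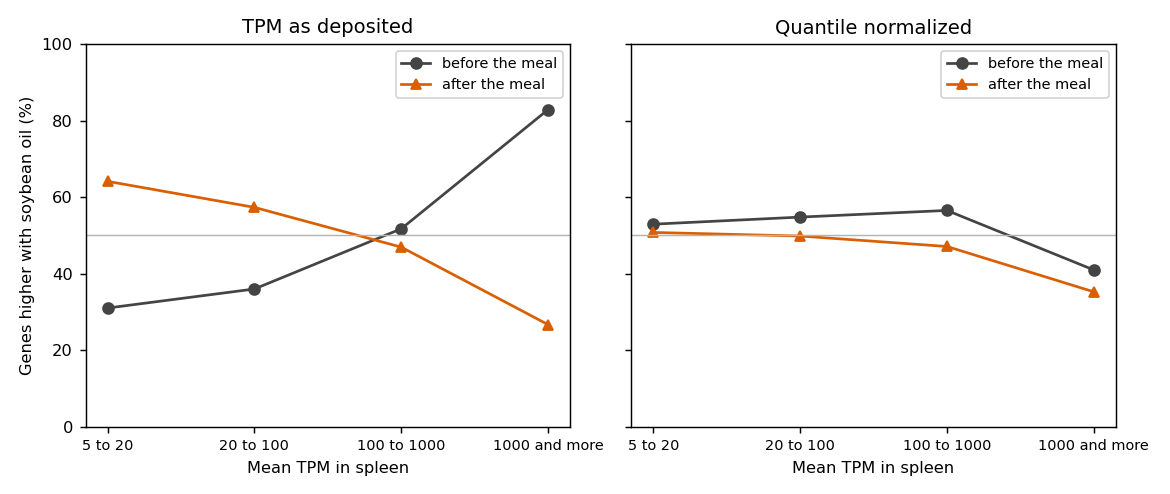
Share of spleen genes that were higher with soybean oil (y axis, %) by mean TPM in spleen (x axis), before and after the meal, as deposited (left) and quantile normalized (right), with a grey line at 50%. As deposited the lines cross, from 31.0% and 64.1% in the lowest tier to 82.9% and 26.7% in the highest, and after quantile normalization they lie close together.

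The closest 2 of the 4 spleen libraries shared neither diet nor feeding state. The fish oil spleen before the meal and the soybean oil spleen after the meal were the closest pair, with a Spearman rho of 0.758 across the 17803 genes and 11.5% of genes at least 2-fold apart. The fish oil spleen after the meal stood farthest off. Against the soybean oil spleen after the meal it had a rho of 0.611 and 26.1% of genes 2-fold apart, and against the fish oil spleen before the meal 0.621 and 27.5%. It was nearest to the soybean oil spleen before the meal, at a rho of 0.72 and 17.6%. The 2 soybean oil spleens had nearly the same rho, 0.719, and fewer genes 2-fold apart, 15.6%. These are descriptions across genes of 1 assembly, which are not independent. The same pair was closest at a mean of at least 100 TPM, with a rho of 0.9 across 689 genes. There the other crossed pair had 0.807, below 0.855 for the 2 soybean oil spleens and 0.844 for the 2 spleens before the meal.

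The libraries were also compared by which stood above which in each gene. In 6447 genes (36.2%) both the fish oil spleen before and the soybean oil spleen after the meal lay above the other pair, and in 2089 (11.7%) both lay below. Both soybean oil spleens lay above both fish oil spleens in 1943 genes (10.9%) and below in 2581 (14.5%). Both spleens after the meal lay above both spleens before it in 1251 genes (7.03%) and below in 3191 (17.9%). Requiring a gap of at least 2-fold between the pairs left 714 and 94 of the 17803 genes for the crossed pairs. It left 103 and 152 for diet and 111 and 107 for the meal, each given as above and below. After quantile normalization the crossed numbers without a gap were 3917 and 4558, so their order flipped, and with a 2-fold gap they were 393 and 169.

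The fish oil spleen after the meal also stood apart alone. Of the 17803 genes, it was at least 2-fold below the other 3 libraries in 1188 and at least 2-fold above them in 355. For the other 3 libraries the numbers below were 138 to 430 and those above 147 to 447. After quantile normalization this library was still the one with the most such genes, 839 below and 439 above. A diet by meal difference needs all 4 spleen libraries, so no value without this library can be given.

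Split into the 3 contrasts of the design, the spread among the 4 spleen libraries lay most in diet by meal. Summed over the 17803 genes, diet by meal held 43.3% of the sum of squares of log2(TPM + 1), diet 28.4% and the meal 28.3%. After quantile normalization the shares were 40.3%, 30.4% and 29.3%. Diet by meal was the largest of the 3 in 8536 genes (47.9%), or in 8477 (47.6%) after quantile normalization. In brain, the meal held the largest share, at 40.1%, and diet by meal 33.6% over 21514 genes. In liver, diet by meal held the smallest share, at 26.7% over 10480 genes. With 1 set of 4 libraries per tissue, the difference in these shares between tissues has no replicate check.

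**Figure D3:**
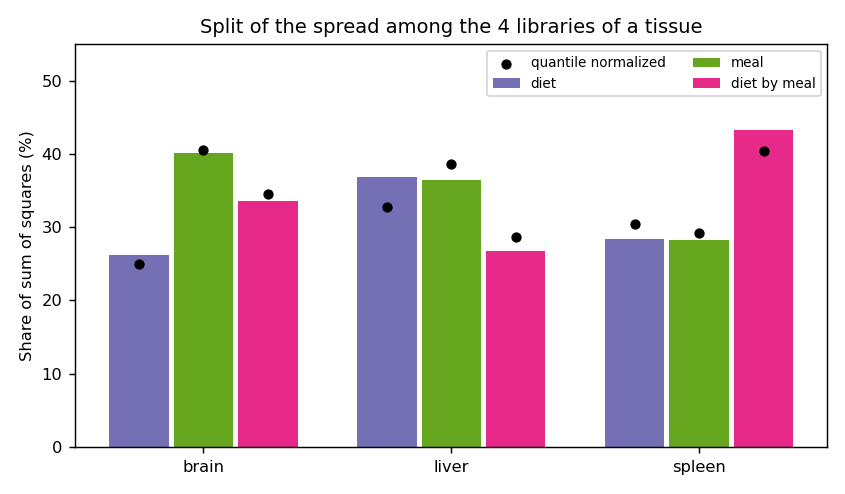
Share of the sum of squares among the 4 libraries of each tissue (y axis, %) that fell to diet, the meal and diet by meal, for genes reaching a mean of 5 TPM in that tissue. Bars show TPM as deposited and black points quantile normalized values; in spleen, diet by meal is the highest bar at 43.3%.

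The spleen libraries were also read by meal fold. A gene whose diet fold turns need not have a meal fold that differs in sign between the diets. With soybean oil 56.2% of the spleen genes were higher after the meal than before it, and with fish oil 29.8%. The median meal fold, log2 after minus before, was 0.078 with soybean oil and -0.33 with fish oil, and -0.082 and -0.025 after quantile normalization. At least 2-fold in both diets, 226 of the 17803 genes were higher and 171 lower after the meal. In 937 of the 17803 the meal fold was higher with soybean oil and lower with fish oil, and in 143 the reverse. After quantile normalization these last numbers were 576 and 279.

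Single IDs are given next, each the most extreme of its class, chosen by the smaller of its 2 diet folds. They do not show the usual size of a difference. Over the 17803 genes the median absolute diet by meal difference was 0.78 on the log2 scale, and 0.75 after quantile normalization. Among genes of at least 5 TPM turning from lower to higher, TRINITY_DN121739_c2_g6 was listed at 0 in the soybean oil spleen before the meal and at 38.9 TPM in the fish oil spleen before it. After the meal it stood at 44.8 TPM with soybean oil and was listed at 0 with fish oil. The crossed pair of libraries thus did not overlap with the other pair, which follows in part from how the ID was chosen. In brain it did not follow, with 15.3 and 4.19 TPM before the meal and 0 and 0.1 TPM after it, soybean oil first. In liver it went from lower to higher, with 0 and 0.08 TPM before the meal and 6.21 and 1.7 TPM after it. The liver values before the meal lie at the floor.

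Among genes of at least 100 TPM turning from lower to higher, TRINITY_DN134883_c1_g2 was the most extreme. Before the meal it stood at 42.6 TPM with soybean oil and 216 TPM with fish oil. After the meal the soybean oil spleen held 258 TPM and the fish oil spleen 37.8 TPM. The 2 high values differed little from each other, as did the 2 low ones. The diet by meal difference was 5.06 ± 2.08 on the log2 scale (SE from limma, adjusted p = 0.518). In brain the same ID was again highest with fish oil before the meal, at 173 TPM, against 26.9 TPM with soybean oil then, and 43.9 and 19.1 TPM with soybean oil and fish oil after the meal. In liver it stayed between 12.1 and 21.1 TPM.

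The opposite turn was led by TRINITY_DN102466_c0_g1 among genes of at least 5 TPM. It stood at 12.6 TPM with soybean oil before the meal and 12.2 TPM with fish oil after it, and was listed at 0 in the other 2 spleens. TRINITY_DN131435_c2_g3 led those of at least 100 TPM, with 350 TPM in the soybean oil and 93.9 TPM in the fish oil spleen before the meal, and 618 and 2227 TPM after it. Both spleens after the meal lay above both before it, and the lowest and the highest were fish oil spleens. Its diet by meal difference was -3.73 ± 1.18 on the log2 scale (SE from limma, adjusted p = 0.486).

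A pair of very abundant IDs, singled out after their values were seen, followed that same course. TRINITY_DN142540_c9_g1 went with soybean oil from 11260 TPM before the meal to 16329 TPM after it, and with fish oil from 1669 to 37415 TPM. TRINITY_DN111081_c5_g1 went from 7887 to 10938 TPM with soybean oil and from 1301 to 25733 TPM with fish oil. Both were lowest in the fish oil spleen before the meal and highest in the fish oil spleen after it. They were the 2 IDs of at least 1000 TPM among the 149 that turned from higher to lower by 2-fold in both states, and were in that class after quantile normalization as well. Together they took 0.297% of all TPM in the fish oil spleen before the meal and 6.31% in the fish oil spleen after it, and held 1.91% and 2.73% in the soybean oil spleens.

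The levels of the 2 IDs stayed near each other outside spleen too. The ratio of the first to the second lay between 1.03 and 1.61 in all 12 libraries, while the first ID ranged from 864 to 37415 TPM. In liver the pair was highest in the fish oil library before the meal, with 1.4% of TPM, against 0.154% with soybean oil then and 0.202% and 0.491% with soybean oil and fish oil after the meal. In brain it took 0.189% to 0.467%. By the sum of the pair, the fish oil library before the meal was therefore the lowest of the 4 in spleen and in brain and the highest in liver. In brain before the meal, the first ID stood at 1146 TPM with soybean oil and 1152 TPM with fish oil. The second ID stood at 1116 and 733 TPM in these libraries, so there the IDs did not move together. Diet by meal differences in spleen were -3.95 ± 1.07 and -3.83 ± 1.19 on the log2 scale (SE from limma, adjusted p = 0.468 and 0.484).

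Some IDs kept a large diet difference through the meal. TRINITY_DN128481_c0_g1, the most extreme of those of at least 100 TPM that stayed higher, held 205 TPM before and 207 TPM after the meal in the soybean oil spleens, against 79.9 and 70.9 TPM in the fish oil spleens. The groups by diet did not overlap, which follows in part from how the ID was chosen. The diet folds were 1.35 and 1.53 on the log2 scale. TRINITY_DN132234_c3_g7 stood at 17.7 and 21.6 TPM with soybean oil and was listed at 0 in both fish oil spleens. Its Trinity component, the assembly's cluster of related IDs, holds 6 IDs, and summed over them the folds were 1.84 and 2.68.

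Lower with soybean oil in both states was TRINITY_DN106610_c2_g2, which went from 1.7 to 22.1 TPM over the meal with soybean oil and from 106 to 367 TPM with fish oil. Both fish oil spleens lay above both soybean oil spleens, which follows in part from how the ID was chosen. The level was higher after the meal with either diet, so the diet difference kept its sign while the level changed. TRINITY_DN97872_c0_g1 was listed at 0 in both soybean oil spleens and stood at 25.9 and 22.2 TPM in the fish oil spleens before and after the meal. It was listed at 0 in all 4 brain libraries.

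**Figure D4:**
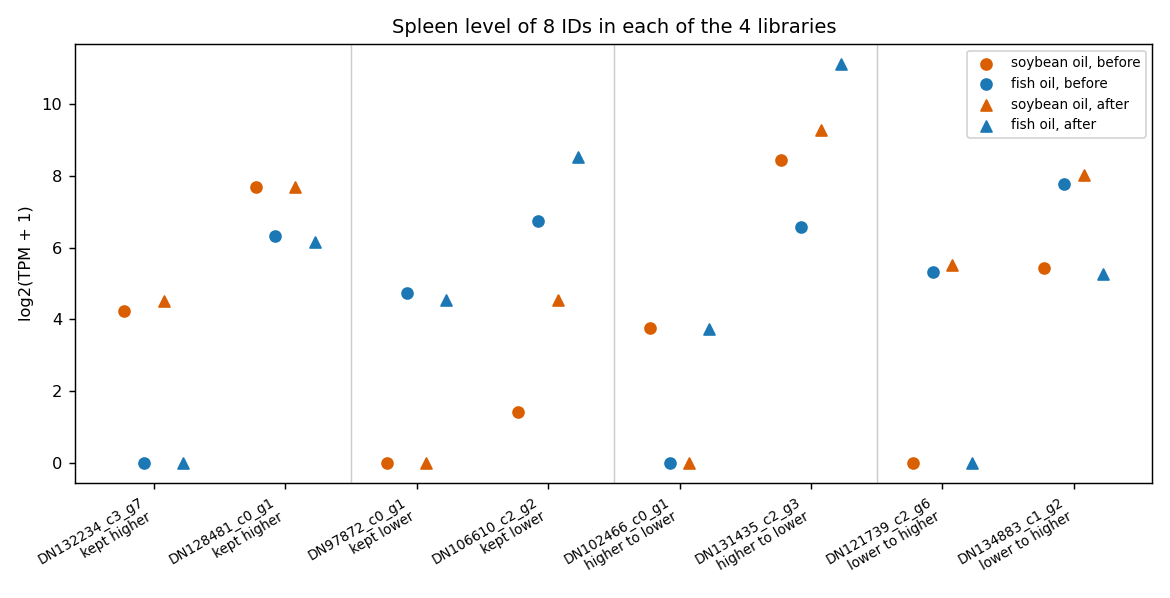
Level of 8 IDs in spleen as log2(TPM + 1) (y axis), 1 point per library, with colour for diet and shape for feeding state, and 2 IDs for each class of kept or turned diet difference. In the turned classes soybean oil lies above fish oil in one feeding state and below it in the other, as for DN134883_c1_g2 with 42.6 and 216 TPM before the meal and 258 and 37.8 TPM after it.

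A test against the spread of brain and liver together called no gene, but the calls depended on which tissue gave the spread and on the filter. Because spleen has no second library per group, the diet by meal differences of brain and liver stood for the spread in limma, a linear model fitted to every gene, with 2 residual degrees of freedom, which assumes that spleen varies as they do. Of 89972 genes tested, 0 (0%) passed an adjusted p of 0.05, and 9105 (10.1%) had an unadjusted p under 0.05. Among the 17566 of the 17803 spleen genes that entered this test, 2125 had an unadjusted p under 0.05, of which 1816 had a difference above 0 and 309 below 0. The lowest adjusted p was 0.397. After quantile normalization over 12 libraries 1659 spleen genes had an unadjusted p under 0.05, of which 1077 were above 0 and 582 below. With liver alone as the spread, on 1 residual degree of freedom, 8923 of 89972 genes (9.92%) were called. Among them were 316 of the 17566 spleen genes. With no filter on low values 35891 of 267134 genes (13.4%) were called, among them 719 of the 17803 spleen genes. In both runs spleen genes were called less often than all genes tested. Of the 8923 and 35891 calls, 6910 and 34969 had a mean under 1 TPM in brain and liver. On simulated data with independent noise the test with both tissues as spread recovered 0% of genes with a log2 difference of 2, 54% at 4 and 96% at 6, and called 13 unchanged genes. There, genes of like mean level had one noise size and no difference was shared between tissues. These shares therefore need not hold for the real data. In the real data TRINITY_DN121739_c2_g6, with a difference of 10.83, did not pass (limma adjusted p = 0.414).

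Among spleen genes, the 2 lowest p-values per direction belonged mostly to IDs listed at 0 in all brain and liver libraries, where no spread is measured. The exception was TRINITY_DN123100_c4_g3. TRINITY_DN124104_c1_g1 was listed at 0 in the soybean oil spleen before the meal and the fish oil spleen after it, and stood at 13.4 and 36.1 TPM in the other 2 spleens. It was listed at 0 in all brain and liver libraries (limma adjusted p = 0.397). TRINITY_DN123100_c4_g3 showed 20.3 TPM with fish oil before and 16.3 TPM with soybean oil after the meal, and was listed at 0 in the other 2 spleens (limma adjusted p = 0.397). It reached 11.9 TPM in brain and 2.11 TPM in liver at most. Summed over the 4 IDs of its component the difference shrank from 8.53 to 0.43, so reads divided between IDs cannot be told apart from a change of the gene. In the other direction, TRINITY_DN127232_c4_g1 stood at 5.91 TPM with soybean oil before and 22.9 TPM with fish oil after the meal, and TRINITY_DN145173_c0_g1 at 9.2 and 13.4 TPM in the same 2 spleens. Both were listed at 0 in the remaining spleens and in brain and liver (limma adjusted p = 0.397 each).

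Reads divided between the IDs of a component can move single IDs, so sums over components were looked at. Of the 1146 lower-to-higher genes past 2-fold, 818 (71.4%) shared their component with another ID, as did 70% of all genes tested. For 785 of the 818 (96.0%) the sum over the component turned the same way. The sum holds the ID's own TPM, which fixes part of this, and in the classes that kept their sign it did so for 92.9% and 93.5%. Of the 149 higher-to-lower genes 86 (57.7%) shared a component, and for 76 of these (88.4%) the sum turned the same way, for 43 by 2-fold in both states. A partner ID past 2-fold in the opposite class was found for 1 gene of each class. In a count added after these values were seen, the ID itself was left out and the sum over its partners had to reach a mean of 5 TPM. Of 308 lower-to-higher genes with such a sum, the partners turned the same way in 217 (70.5%), against 49.4% of 4753 over all genes tested. Of 31 higher-to-lower genes they did so in 4 (12.9%), against 14.2%.

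Many of the genes that turned from lower to higher in spleen did so in brain as well. Of the 1146 lower-to-higher genes, 657 also had a mean of at least 5 TPM in brain. In 426 of these (64.8%) the diet difference in brain also went from lower to higher with soybean oil, and in 36 (5.48%) from higher to lower. Over all 13157 genes of at least 5 TPM in both tissues the shares were 25.4% and 32.8%. The median diet by meal difference of the 657 genes in brain was 1.51 on the log2 scale, against -0.081 over all 13157. After quantile normalization within each tissue, 221 of 345 (64.1%) turned from lower to higher in brain, against 22.8% of all.

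For the opposite class the share in brain was close to that of all genes. Of the 149 higher-to-lower genes 70 were measured in brain, and 27 of these (38.6%) turned from higher to lower there against 32.8% of all. After quantile normalization the numbers were 63 of 146 (43.2%) against 36.6%. The median diet by meal difference of the 70 genes in brain was -0.43 on the log2 scale.

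In liver the shares lay closer to those of all genes. Of the 444 lower-to-higher genes measured there, 132 (29.7%) turned from lower to higher against 23.0% of all 6848 genes, and 37 (8.33%) from higher to lower against 18.8%. Their median diet by meal difference in liver was 0.72 on the log2 scale, against 0.13 over all. After quantile normalization 93 of 252 (36.9%) turned from lower to higher, against 23.8%. For the higher-to-lower genes only 26 were measured in liver, with a median of 0.77. The class after quantile normalization holds 279 genes, among them all 149 of the class as deposited. Of the 279, 52 were measured in liver, with a median of -0.54 on quantile normalized values.

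Across all genes measured in both tissues, diet by meal differences in spleen and brain had a Spearman rho of 0.473 (Pearson r 0.407, 13157 genes). For the diet fold before the meal alone rho was 0.389, and for that after the meal 0.306. For the mean diet fold over both states it was 0.021 and for the mean meal fold over both diets 0.271. Of these 5 values, at the limit of 5 TPM, that for diet by meal was the highest. At a mean of at least 100 TPM in both tissues (425 genes) the diet fold before the meal gave the higher rho, 0.636 against 0.541 for diet by meal. With liver the rho was 0.354 for the diet fold before the meal, 0.106 for that after it, 0.308 for diet by meal, 0.066 for mean diet and -0.078 for the mean meal fold (6848 genes). After quantile normalization diet by meal gave 0.449 with brain and 0.28 with liver. Brain and spleen of one group could have been dissected from the same animals, and all libraries share 1 assembly; the part of this in the likeness was not tested.

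**Figure D5:**
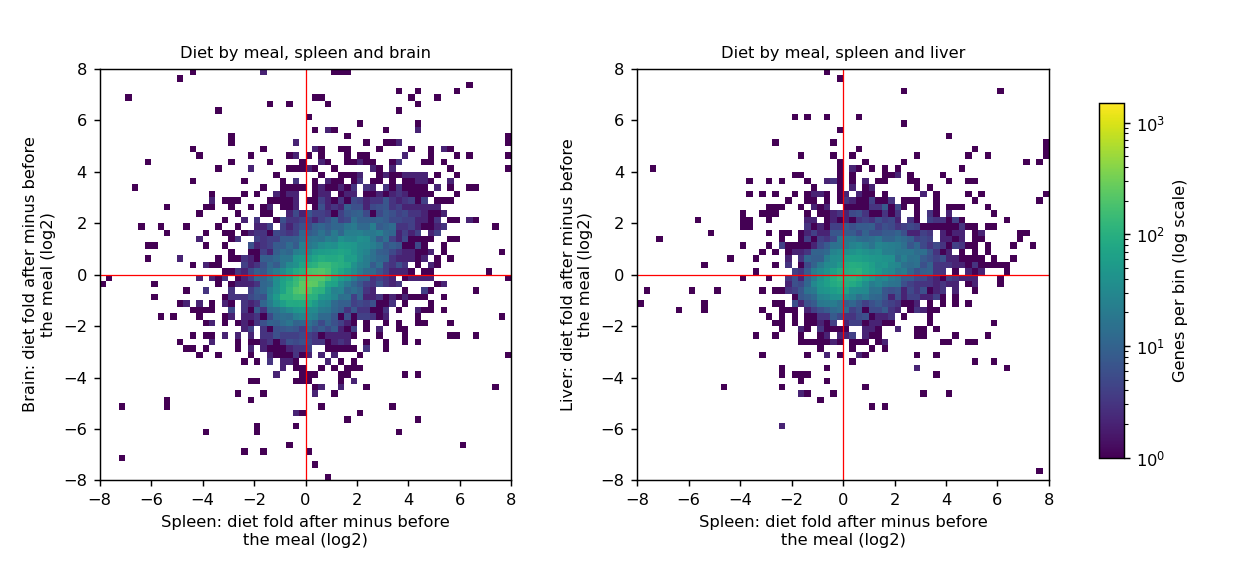
Diet by meal difference of each gene, the log2 diet fold after minus before the meal, in spleen (x axis) against brain (left, 13157 genes) and liver (right, 6848 genes), with colour for the number of genes per bin on a log scale and values past 8 drawn at the edge. The cloud for brain rises along the diagonal, with a Spearman rho of 0.473, and that for liver is flatter, with 0.308.

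This likeness bears on the limma test, since differences shared by the tissues entered it as spread. A fit added after this was seen, with 1 diet by meal term common to the 3 tissues, also called 0 of 89972 genes. In it 8311 genes had an unadjusted p under 0.05, and the lowest adjusted p was 0.517 (limma).

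In the number of detected genes the tissues were alike before the meal and not after it. With soybean oil before the meal brain held 52435 and liver 29749 genes of at least 1 TPM, fewer than the 78832 and 41124 with fish oil, as in spleen. After the meal the soybean oil and fish oil libraries held 66426 and 66103 genes in brain and 40932 and 46726 in liver, while in spleen the soybean oil library held more.

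Spleen-enriched genes were split about evenly between kept and turned signs. A gene was called enriched in a tissue with a mean of at least 10 TPM there and at least 8 times the mean TPM + 1 of each other tissue. Of 279 spleen-enriched genes 137 (49.1%) turned, under either scaling, against 61% of all genes tested as deposited. Neither share was compared with that of unrelated diet folds. Past 2-fold in both states 18 stayed lower with soybean oil (6.45%, against 1.56% of all genes tested) and 16 turned from lower to higher (5.73%, against 6.44%). Another 6 turned from higher to lower (2.15%, against 0.837%) and 5 stayed higher (1.79%, against 0.949%). The set summed to 76935 TPM in the soybean oil spleen and 66763 TPM in the fish oil spleen before the meal, and to 71030 and 62215 TPM after it. As a set it therefore lay higher with soybean oil in both states. Its median gene did not, with diet folds of -0.27 before and 0.26 after the meal.

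Liver-enriched genes turned in a share not far above that of all genes. Of 95 such genes reaching a mean of 5 TPM in spleen, 65 (68.4%) turned, against 61% of all. From lower to higher turned 52 (54.7%, against 44.8% of all) and from higher to lower 13 (13.7%, against 16.2%), with a median diet by meal difference of 1.08 on the log2 scale against 0.44 over genes in no set. Past 2-fold in both states 16 (16.8%) turned from lower to higher, against 6.44% of all genes tested. After quantile normalization 41 (43.2%, against 28.4% of all) turned from lower to higher and 26 (27.4%, against 31.6%) from higher to lower. The summed TPM of the 1029 liver-enriched genes was 3848 in the fish oil spleen before the meal, and 2513, 2469 and 2018 in the soybean oil spleens before and after the meal and the fish oil spleen after it. Without these genes, and with TPM rescaled, 1135 spleen genes turned from lower to higher by 2-fold in both states, against 1146 with them. The set held little of the TPM in any spleen, so the rescaling could hardly move other genes. Of the 1146, 16 were themselves in the set.

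Brain-enriched genes leaned the other way. Of 50 reaching a mean of 5 TPM in spleen, 19 (38%) turned from higher to lower, against 16.2% of all, and 8 (16%) from lower to higher, against 44.8%. After quantile normalization the numbers were 29 (58%, against 31.6%) and 4 (8%, against 28.4%). Their median diet folds were 0.20 before the meal and -0.058 after it. The 1442 brain-enriched genes summed to 2029 and 1760 TPM in the soybean oil and fish oil spleens before the meal, and to 1421 and 1468 TPM after it.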

How the data were processed

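The authors deposited TPM for each Trinity gene in each library, rounded to 2 decimals. Per the labels' protocols, 40 fish of about 358.64 ± 37.1 g were kept in 2 ponds and fed daily at 16:00, and 6 fish per pond and time were sampled. RNA of 3 samples per group was used, with an RNA integrity number above 8, and cleaned 125-bp paired-end reads were assembled with Trinity. The protocol speaks of 45 libraries, of which 12 are analysed here. How reads were assigned to genes is not stated in these sources, and TPM holds no depth, so counting intervals cannot be given. That the values are TPM was read from their sums and the lack of a common step among low values.

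Groups came from the labels. Diet folds, classes and sums of squares were computed on log2(TPM + 1), which understates changes of low genes, and again after quantile normalization over the 4 spleen libraries. Planned tests fell to limma 3.58.1 (R 4.3.3; trend, robust, Benjamini-Hochberg adjustment) on genes that reached 1 TPM in 2 or more libraries, with 10 coefficients; it was tested on simulated data with independent noise. Named IDs were, per class, the 1 with the largest smaller diet fold at a mean of at least 5 and of at least 100 TPM, in the same class under both scalings, and the 2 lowest limma p per direction. Marker and lipid gene lists could not be applied, as IDs carry no names. The rule, classes and sets were chosen with earlier results of these data known. Python 3.11.15, pandas 2.3.3, numpy 2.4.6 and matplotlib 3.10.9 were used. The p-values measure only the spread of these brain and liver libraries, as the 4 spleen libraries are fitted exactly. The fit with 1 diet by meal term common to the 3 tissues is the exception.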

Additional observations from a re-analysis of the deposited data

Results flagged for a closer look

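The following IDs had diet folds of opposite sign before and after the meal in spleen, with 1 library per diet in each state. They were picked for this or for a low p, so the turn itself is no finding. The change in diet fold, after minus before the meal on log2(TPM + 1), was tested in limma against the spread of brain and liver, and none passed (adjusted p of 0.397 to 0.518).

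From lower to higher with soybean oil, the change was 10.83 for TRINITY_DN121739_c2_g6, 5.06 for TRINITY_DN134883_c1_g2, 9.06 for TRINITY_DN124104_c1_g1 and 8.53 for TRINITY_DN123100_c4_g3. From higher to lower it was -7.49 for TRINITY_DN102466_c0_g1, -3.73 for TRINITY_DN131435_c2_g3, -7.37 for TRINITY_DN127232_c4_g1 and -7.19 for TRINITY_DN145173_c0_g1. All but TRINITY_DN134883_c1_g2 and TRINITY_DN131435_c2_g3 were listed at 0 in 2 spleens, so their size depends on the pseudocount. With a pseudocount of 0.1 the change of TRINITY_DN121739_c2_g6 was 17.42 and that of TRINITY_DN102466_c0_g1 -13.94.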

How the results depend on the processing

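No paired analysis was possible because each group holds 1 library and a diet by meal difference uses all 4 spleen libraries; for the same reason none was left out. Of 165 alternative values, 93 stayed within the limits set, 65 moved and 7 changed sign. The limits were a factor of 1.5 for counts, 0.05 for r and medians, and 5 percentage points for the spread. For the share of kept signs the binomial interval was used. Diet by meal differences of named IDs were not judged by these limits. Of their values 26 were counted as staying, 9 as moved and 1 as changing sign. The share of the spread in diet by meal moved by less than 5 percentage points in every alternative run. The binomial interval, 36.1% to 37.6%, treats genes as independent, which they are not. It is therefore narrow, and a small shift to 37.9% kept signs counted as moved. The cause of the shifts was not tested, except where fewer or more genes entered by construction.

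Quantile normalization over the 4 spleen libraries gave 37.9% kept signs, medians of 0.047 before and 0.0061 after the meal, 279 higher-to-lower and 624 lower-to-higher genes past 2-fold, and in the enriched sets turns from higher to lower of 29 (brain), 26 (liver) and 53 (spleen) genes and from lower to higher of 4 (brain). Over 12 libraries it gave 37.9%, 0.048, 0.0066, 281 and 643. With the libraries shifted to one median the values were 37.97%, 0.081, -0.060, 283 and 608. The medians before and after the meal were -0.16 and 0.16 without the 10 highest genes and also with a pseudocount of 5, and -0.26 and 0.28 summed over components.

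Past 2-fold in both states, the numbers staying higher, staying lower, turning to lower and turning to higher were 70, 134, 61 and 447 with a pseudocount of 5. At a mean of at least 1 TPM they were 776, 975, 596 and 3959 of 62018 genes. At 20 TPM they were 22, 44, 19 and 186 of 4266, and at 100 TPM 2, 6, 9 and 17 of 689. At 1.5-fold they were 390, 610, 391 and 2633, and at 4-fold 47, 87, 44 and 163. These thresholds and the pseudocount of 5 were applied to the 17803 genes. Kept signs were 27.4%, 38.7% and 35.0% at 1, 20 and 100 TPM. Genes with a difference of 0 in a state count as not kept, and they were more common at low level. They numbered 429 of 3812 at 4 to 5 TPM and 7 of 3577 at 20 to 100 TPM. The medians were -0.12 and 0.081 at 20 TPM, and 0.063 and -0.11 at 100 TPM, so both changed sign. Pearson's r of the diet folds, -0.14 as deposited, was -0.091 with a pseudocount of 0.1 and -0.056 at 1 TPM.

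In limma, 21658 genes above 0 (8.11%) and 14233 below (5.33%) were called without a filter, of 267134 tested. Of these calls 34969 had a mean under 1 TPM in brain and liver. With liver alone as spread, on 1 residual degree of freedom, the calls were 5624 (6.25%) and 3299 (3.67%) of 89972, with 6910 under that level. The other alternatives called 0 genes. The diet by meal difference of TRINITY_DN97872_c0_g1, 0.21 as deposited, was -0.063 after quantile normalization.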
